A study of Mus musculus with 13 samples.

Results

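The 8 genes described here, Slc15a2, Upp1, Mid1, Erdr1, Rpl39l, Enah, Morc1 and Myl10, were chosen by their intensities at day 3, which were higher on arrays of cells without BATF than on those of wild-type cells. They are 8 of 18193 genes with a probe set of their own, and all 18 probe sets that map to them, of 45037 in the table, were followed across the 4 groups. The day 3 differences between the genotypes chose the genes and are therefore a description, with no test. For the 8 genes, tests between the genotypes were kept to the naive cells, which the choice did not use. Day 3 tests are quoted for other genes only. The average change from naive to day 3 contains the day 3 values of both genotypes. Where it is given for the 8 genes it is therefore a value, with no test.

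All 13 arrays hold RNA of CD8+ T cells from C57Bl/6 mice that carry the P14 TCR transgene, a T cell receptor that gives most CD8+ T cells a single specificity. The mice were otherwise wild type or BATF-/-. Of the arrays, 2 wild-type and 3 BATF-/- ones hold naive cells of day 0, and 4 of each genotype hold cells kept for 3 days on plate-bound antibodies to CD3 and CD28 with 100 U/ml human IL-2. The cells were enriched by magnetic negative selection, which leaves CD8+ T cells untouched. Separate animals or cultures behind the arrays are not named, so p-values measure the spread between these arrays, which may be technical. In such bulk RNA fewer cells of a type and less RNA per cell cannot be told apart. Ages are not given in the sources used here.

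BATF is a small transcription factor of the AP-1 family with no transactivation domain of its own. It pairs with Jun proteins on AP-1 sites and, together with Irf4, on composite sites that join an AP-1 and an IRF element. In CD8+ T cells it is known as a regulator of effector differentiation, with targets that it raises and targets that it holds down.

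The genes have separate known roles. Slc15a2 codes for a proton-coupled transporter that takes up di- and tripeptides, and Upp1 for uridine phosphorylase, which splits uridine into uracil and ribose 1-phosphate. Mid1, Enah and Myl10 belong to the cytoskeleton: Mid1 is a ubiquitin ligase bound to microtubules, Enah an Ena/VASP protein that promotes growth of actin filaments, and Myl10 a regulatory light chain of myosin. Morc1 and Rpl39l are best known from male germ cells, Morc1 as an ATPase that silences transposons and Rpl39l as a copy of the ribosomal protein gene Rpl39. Erdr1 lies beside Mid1 at the end of the X chromosome and is listed as a transcribed pseudogene in the RefSeq gene table.

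Upstream sequences were looked at because BATF binds AP-1 and AP-1/IRF composite letters. RefSeq start-site windows of GRCm38.p6, from 250 bases before to 50 after a start site, were at hand for 6 of the 8 genes, 12 windows in all, and not for Erdr1 and Morc1. The AP-1 letters TGAGTCA, on either strand, were found in the windows of 1 of these 6 genes, Upp1, and in those of 5.95% of all genes with a window (5.2% of all 32851 windows). The same place in Upp1, 45 bases before its first start site, also matches on the reverse strand a composite of GAAA followed directly by TGANTCA. This composite overlaps the AP-1 letters and was found in 0.141% of all genes. The other composite searched, TTTC and TGANTCA with 4 bases between them on either strand, was found in 0.133% of all genes and in none of the 12 windows. The CRE letters TGACGTCA were in none of the 12 either (2.03% of all genes), and an IRF pattern of a pair of GAAA with 2 bases between them was in 1 window of Myl10 (3.99% of all genes). These are matches of letters, not measured binding, and a window without a match says nothing on binding by BATF. The 250 bases before the start site of Upp1 with the match, on the plus strand at chr11:9117758-9118007, and of Slc15a2, the gene with the highest day 3 difference, on the minus strand at chr16:36784963-36785212, are printed 5′ to 3′, with the composite match in capitals.
Upp1: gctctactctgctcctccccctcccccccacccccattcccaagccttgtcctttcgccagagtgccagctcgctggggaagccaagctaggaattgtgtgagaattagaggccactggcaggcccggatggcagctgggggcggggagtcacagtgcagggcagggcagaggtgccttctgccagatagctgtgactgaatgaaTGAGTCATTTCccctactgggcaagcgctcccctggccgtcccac
Slc15a2: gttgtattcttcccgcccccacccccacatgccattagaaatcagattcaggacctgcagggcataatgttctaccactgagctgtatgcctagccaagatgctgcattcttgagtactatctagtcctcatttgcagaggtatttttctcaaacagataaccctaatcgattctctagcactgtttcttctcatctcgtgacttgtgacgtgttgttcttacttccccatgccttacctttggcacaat

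Values are log2 of RMA intensities. Where a gene has several probe sets, the brightest by its average over all 13 arrays leads the description. The lowest 40% of the 45037 probe sets, with means below 4.35, are called dim, and a difference from a group in that range is read as a lower bound. This concerns the compression of dim signals only, not the error of the estimate or the choice of probe set. Array medians lay between 31.5 and 32.5 on the linear scale. Batf itself lay between 9.19 and 9.36 on naive and between 8.63 and 9.19 on day 3 wild-type arrays, so its mean was lower at day 3 (8.86) than in naive cells (9.28), and between 5.56 and 6.77 on all BATF-/- arrays. The 6 measured markers of CD8 T cells had array means between 11.6 and 12.1 in all groups. Array means of B cell, NK cell, neutrophil, monocyte, dendritic cell, erythroid and platelet markers were higher in naive than in day 3 arrays and, in part, in naive BATF-/- arrays. The array mean of 9 B cell markers lay between 5.75 and 6.09 in wild-type and between 6.34 and 6.79 in BATF-/- naive arrays, and that of 6 NK cell markers between 7.06 and 7.19 and between 7.80 and 8.31. The mean of 6 neutrophil markers lay between 5.16 and 5.83 and between 4.66 and 8.56. In the naive groups 3 of 9 B cell markers in wild type and 2 of 9 in BATF-/- were dim, as were 1 and 0 of 6 NK cell and 1 and 1 of 6 neutrophil markers. Their part in the naive differences and in the changes from naive to day 3 below was not tested.

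**Figure D1:**
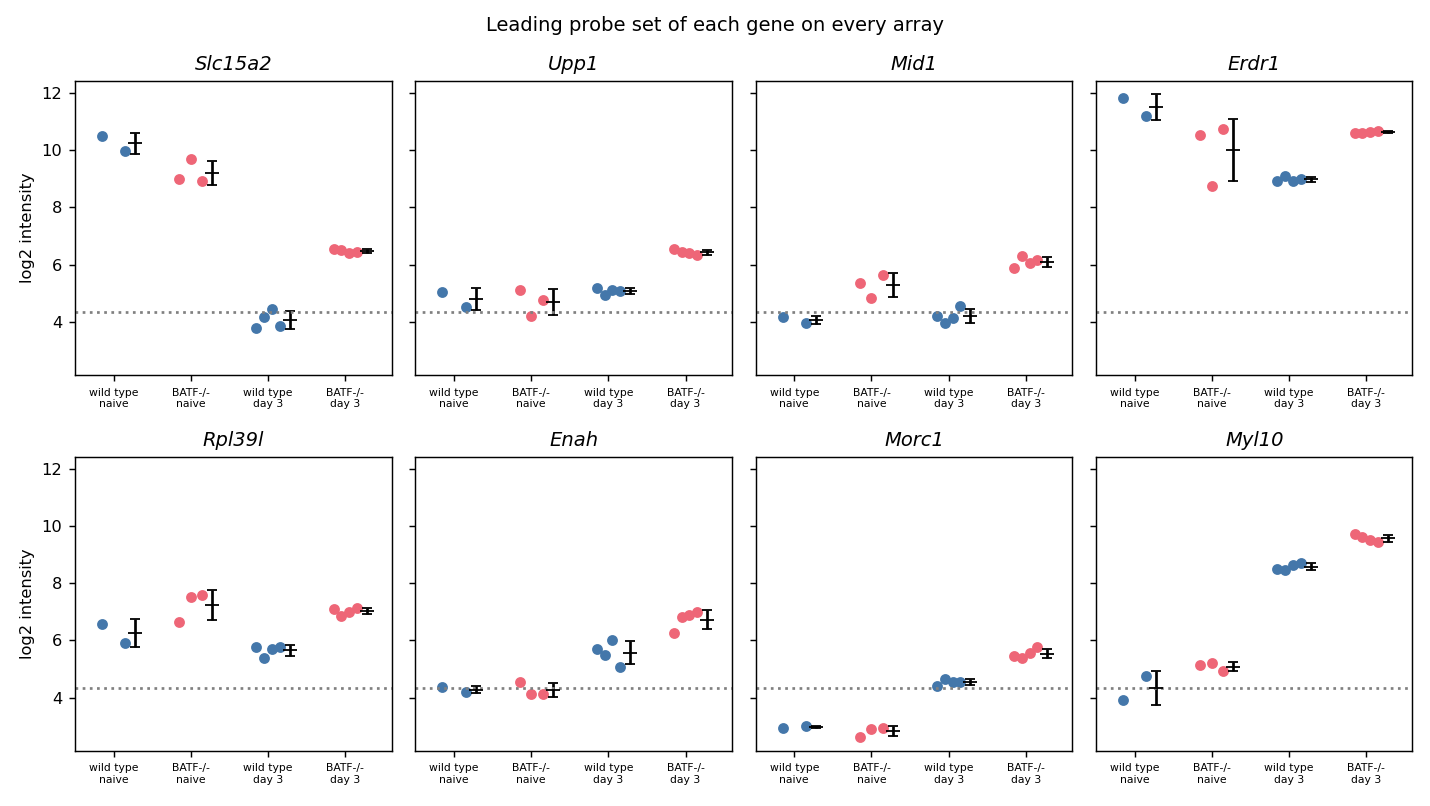
Log2 intensity of the leading probe set of each gene (y axis) on each of the 13 arrays, by genotype and state (x axis). Dots are arrays, the black bar is the group mean ± SD, and the dotted line is the dim limit of 4.35. At day 3 the 4 BATF-/- arrays lie above the 4 wild-type arrays in each panel, while the naive levels and the direction from naive to day 3 differ between the genes.

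The name under which these genes were grouped, kept high without BATF, describes only some of them. It describes Erdr1, and Slc15a2 only in part, since the mean of Slc15a2 was also lower at day 3 without BATF. Rpl39l matches it in part as well, with changes from naive to day 3 of -0.60 ± 0.23 (SE) in wild type and -0.22 ± 0.21 in BATF-/- cells. Slc15a2 and Erdr1 were bright in naive wild-type cells and lower at day 3 in wild type than in BATF-/- cells. Mid1 and Rpl39l had higher means in BATF-/- cells in both states. Upp1, Enah and Morc1 had low naive means and higher day 3 means, more so without BATF. Myl10 rose from low naive means by similar amounts, 4.22 in wild type and 4.48 in BATF-/- cells. Its mean was higher without BATF in both states.

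The peptide transporter Slc15a2 had the widest range. Its log2 intensity was 10.49 and 9.99 on the wild-type naive arrays, and 8.99, 9.71 and 8.93 on the BATF-/- naive arrays. Day 3 arrays gave 3.78, 4.18, 4.44 and 3.86 for wild type, and 6.56, 6.50, 6.43 and 6.44 in BATF-/- cells. Naive cells of both genotypes were therefore far above day 3 cells, and the order of the genotypes was opposite in the 2 states, with no overlap in either. Over both genotypes together the level fell by 4.45 ± 0.15 (SE) on the log2 scale. The fall was 6.18 in wild type, which ended in the dim range, and 2.73 in BATF-/- cells. The day 3 difference was 2.42 ± 0.18 (SE). With the dim wild-type mean, this difference and the wild-type and average falls are lower bounds. Slc15a2 went from the 94.6th to the 35.7th percentile of all probe sets for wild type, and from the 89.6th to the 67.7th in BATF-/- cells. The naive difference, -1.03 ± 0.23 (n = 3 and 2), did not pass (limma, adjusted p = 0.0596), but it passed without BATF-/- naive replicate 2 (-1.28, adjusted p = 0.00521). With another array left out it was as small as -0.78 (adjusted p up to 0.298), and over the mean of its 3 probe sets it was -0.35.

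The other 2 probe sets of Slc15a2 showed none of this. The second lay between 4.95 and 5.45 and the third between 3.94 and 4.28 on all 13 arrays, with day 3 differences of 0.07 and 0.04. Over the mean of the 3 probe sets the day 3 difference was 0.84.

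Erdr1 was the brightest of the 8 genes. Its log2 intensity was 11.82 and 11.19 on the wild-type naive arrays, and 10.52, 8.75 and 10.75 on the BATF-/- naive arrays. The day 3 values were 8.92, 9.11, 8.93 and 9.01 for wild type, and 10.59, 10.60, 10.63 and 10.67 in BATF-/- cells. The day 3 groups were tight, with SDs of 0.087 and 0.036, whereas the BATF-/- naive arrays had an SD of 1.09, with replicate 2 far below the other two. As for Slc15a2, naive BATF-/- arrays lay below wild type and day 3 arrays above, without overlap. The change from naive to day 3 was -2.52 in wild type and 0.62 in BATF-/- cells, and -0.95 ± 0.26 (SE) averaged over both. The naive difference of -1.50 ± 0.41 (n = 3 and 2) did not pass (limma, adjusted p = 0.121). Without BATF-/- naive replicate 2 it was -0.87 and passed (adjusted p = 0.0122), and over the mean of its 2 probe sets it was -0.83. The leading probe set has the suffix x_at, which the array's maker uses for probes that can also bind other transcripts. The second probe set of Erdr1 was dim. It lay between 3.59 and 4.56 on all arrays, with a day 3 difference of 0.55 and overlapping groups.

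Mid1, the microtubule ligase, was higher without BATF before and after stimulation. Its log2 intensity was 4.16 and 3.97 in wild-type and 5.37, 4.84 and 5.65 in BATF-/- naive arrays. On day 3 the values were 4.20, 3.95, 4.15 and 4.55 for wild type, and 5.87, 6.29, 6.05 and 6.15 in BATF-/- cells. Wild-type means were dim in both states, so the differences are lower bounds, and the genotypes did not overlap in either state. The naive difference was 1.22 ± 0.21 (SE, n = 3 and 2), an estimate of 2.32-fold, and passed (limma, adjusted p = 0.0168). It was the only one of the 8 leading probe sets that passed in naive cells, where 0.704% of all genes passed as higher, 0.159% as lower and 0.863% in either direction. The call was lost without wild-type naive replicate 1 (1.31, adjusted p = 0.067), wild-type naive replicate 2 (1.12, adjusted p = 0.138) or BATF-/- naive replicate 3 (1.03, adjusted p = 0.0532). It was also lost when the naive arrays were fitted alone (adjusted p = 0.523) and for the mean over its 3 probe sets (0.45, adjusted p = 0.0734). At day 3 the difference was 1.88 ± 0.16 (SE). From naive to day 3 the change was 0.14 ± 0.20 (SE) in wild type, between means that were both dim, and 0.81 ± 0.17 in BATF-/- cells.

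The other 2 probe sets of Mid1 were dim. The second lay between 3.43 and 4.11, with all BATF-/- day 3 arrays above wild type (difference 0.36), and the third between 2.62 and 3.21, with a day 3 difference of -0.17.

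Rpl39l, the ribosomal protein copy, was 6.59 and 5.90 on the wild-type naive arrays and 6.64, 7.51 and 7.58 on the BATF-/- naive arrays. Day 3 arrays read 5.76, 5.38, 5.71 and 5.75 for wild type, and 7.11, 6.87, 7.01 and 7.12 in BATF-/- cells. In naive cells the lowest BATF-/- array was just above the highest wild-type array, and at day 3 the groups were wide apart. The naive difference of 0.99 ± 0.25 (SE, n = 3 and 2) did not pass (limma, adjusted p = 0.088), but it passed without BATF-/- naive replicate 1 (1.29, adjusted p = 0.00682). Without wild-type naive replicate 2 it was 0.65 (adjusted p = 0.423). The day 3 difference was 1.37 ± 0.19 (SE). From naive to day 3 the change was -0.60 ± 0.23 (SE) in wild type and -0.22 ± 0.21 in BATF-/- cells. Rpl39, the gene from which it derives, was 6.24 and 6.35 in naive and 6.23 and 6.21 in day 3 cells of wild-type and BATF-/- mice. The difference of Rpl39 at day 3 was -0.01 ± 0.06 (SE, limma, adjusted p = 0.968). Other ribosomal protein genes reached means of 13.9 at day 3, and how well the Rpl39 probe set reports its transcript was not tested.

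**Figure D2:**
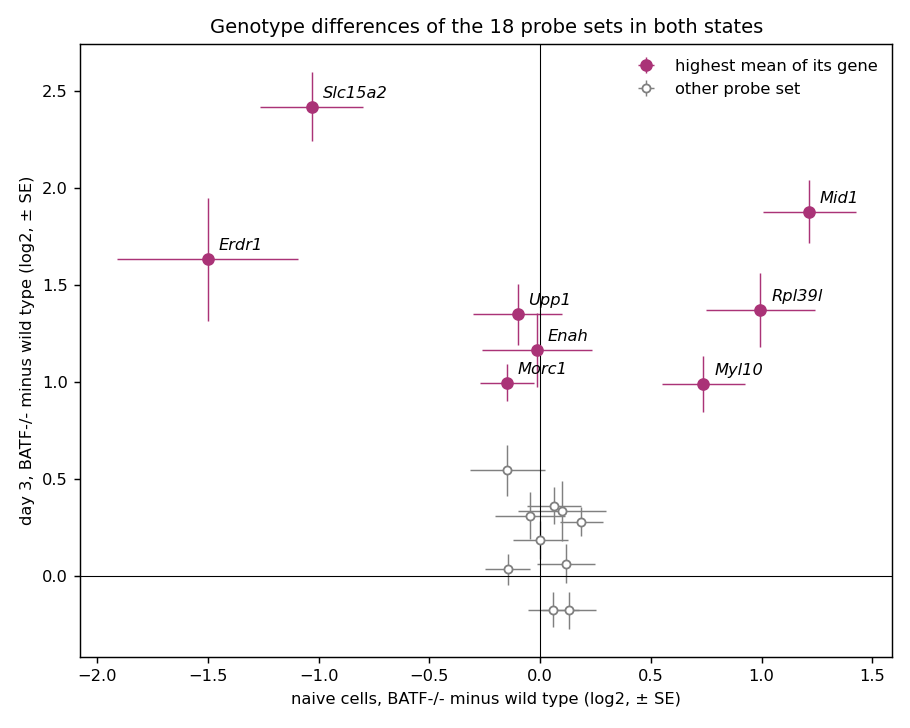
Difference between BATF-/- and wild type in naive cells (x axis) and at day 3 (y axis), log2 ± SE, for the 18 probe sets. Filled points are the leading probe set of each gene and open points the other 10, which lie between -0.18 and 0.55 on the day 3 axis. Slc15a2 and Erdr1 lie left of 0, Mid1, Rpl39l and Myl10 right of it, and Upp1, Enah and Morc1 near it.

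Upp1, the uridine phosphorylase, did not separate the genotypes in naive cells. Its log2 intensity was 5.06 and 4.53 in wild-type and 5.10, 4.22 and 4.76 in BATF-/- naive arrays, with a difference of -0.10 ± 0.20 (SE, n = 3 and 2; limma, adjusted p = 0.882). The day 3 arrays gave 5.19, 4.94, 5.13 and 5.07 in wild type, where it lay close to the upper naive values, and 6.54, 6.46, 6.40 and 6.33 in BATF-/- cells. Only the BATF-/- day 3 arrays thus stood apart, with a day 3 difference of 1.35 ± 0.16 (SE). From naive to day 3 the change was 0.29 ± 0.19 (SE) in wild type and 1.74 ± 0.17 in BATF-/- cells. Its upstream sequence, printed above, is the one with the AP-1 and composite letters.

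Enah, the actin regulator, was 4.36 and 4.20 in wild-type and 4.55, 4.11 and 4.13 in BATF-/- naive arrays, with both means just below the dim limit. Stimulated cells gave 5.70, 5.49, 6.01 and 5.06 for wild type, and 6.26, 6.81, 6.88 and 6.98 in BATF-/- cells. Every day 3 array lay above every naive array, and the gap between the genotypes at day 3, from 6.01 to 6.26, was narrow against the spread within them. Over both genotypes together Enah rose by 1.88 ± 0.16 (SE), by 1.29 in wild type and 2.47 in BATF-/- cells, each a lower bound. The naive difference was -0.01 ± 0.25 (SE, n = 3 and 2; limma, adjusted p = 0.988) and that at day 3 was 1.17 ± 0.19 (SE).

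The other 5 probe sets of Enah had day 3 differences from -0.18 to 0.34. In 1 of them all BATF-/- arrays lay above wild type at day 3, and in the others the groups overlapped. Over the mean of the 6 probe sets the day 3 difference was 0.35.

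Morc1, the germ cell ATPase, was the dimmest of the 8. It was 2.94 and 3.00 in wild-type and 2.62, 2.90 and 2.94 in BATF-/- naive arrays, all dim. Day 3 values were 4.42, 4.64, 4.56 and 4.56 in wild type, just above the dim limit, and 5.47, 5.37, 5.57 and 5.76 in BATF-/- cells. Naive arrays, wild-type day 3 arrays and BATF-/- day 3 arrays formed 3 ranges without overlap. Averaged over the genotypes Morc1 rose by 2.15 ± 0.08 (SE), an estimate of 4.43-fold from dim naive means. The rise was 1.57 in wild type and 2.72 in BATF-/- cells. The naive difference was -0.15 ± 0.12 (SE, n = 3 and 2; limma, adjusted p = 0.644) and that at day 3 was 0.998 ± 0.09 (SE).

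Myl10, the myosin light chain, rose most from naive to day 3. Its log2 intensity was 3.93 and 4.77 in wild-type and 5.13, 5.21 and 4.93 in BATF-/- naive arrays. After stimulation it was 8.49, 8.46, 8.62 and 8.72 for wild type, and 9.71, 9.61, 9.49 and 9.43 in BATF-/- cells. Both genotypes gained more than 4 log2, and BATF-/- arrays lay above wild type in both states. Over both genotypes together Myl10 rose by 4.35 ± 0.12 (SE, 20.4-fold), by 4.22 in wild type and 4.48 in BATF-/- cells. The naive difference of 0.74 ± 0.19 (SE, n = 3 and 2) did not pass (limma, adjusted p = 0.094). It was 1.16 without wild-type naive replicate 2 (adjusted p = 0.00463) and 0.31 without wild-type naive replicate 1 (adjusted p = 0.439). In both fits a single wild-type naive array is left, whose spread is assumed to be that of the other groups. The day 3 difference was 0.99 ± 0.14 (SE).

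**Figure D3:**
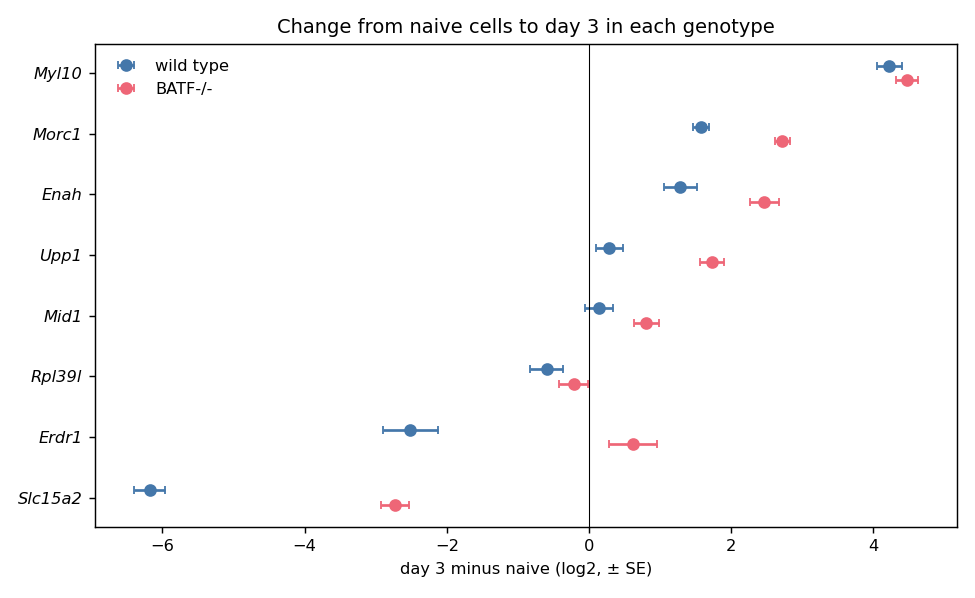
Change from naive cells to day 3 (x axis, log2 ± SE) in wild-type and BATF-/- cells for the leading probe set of each gene (y axis). Wild-type changes run from -6.18 for Slc15a2 to 4.22 for Myl10, and each BATF-/- point lies to the right of the wild-type point of its gene. The order within each pair is in part set by the choice of the genes.

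Set side by side, the 8 genes shared no direction from naive to day 3. Every day 3 array lay above every naive array for Enah, Morc1 and Myl10 (17.4% of all genes), and below for Slc15a2 (19.3%). In naive cells the genotypes did not overlap for 5 of the 8, with BATF-/- above in Mid1, Rpl39l and Myl10 (11.8% of all genes) and below in Slc15a2 and Erdr1 (12.7%). Naive arrays below and day 3 arrays above wild type were found in 0.874% of all genes, and arrays above in both states in 0.962%. The choice of the genes fixed the day 3 part, so these shares are too low a yardstick for the 8. Of the 1354 genes with all BATF-/- day 3 arrays above wild type, 159 had all BATF-/- naive arrays below and 175 above. The order of the naive wild-type means, from high to low, was Erdr1, Slc15a2, Rpl39l, Upp1, Myl10, Enah, Mid1 and Morc1, but signals of different probe sets are not comparable as RNA amounts.

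The day 3 ranks of the 8 genes by difference were 1 (Slc15a2), 2 (Mid1), 4 (Erdr1), 6 (Rpl39l), 7 (Upp1), 10 (Enah), 16 (Morc1) and 17 (Myl10) of 18193. All BATF-/- day 3 arrays lay above all wild-type arrays in 10 of the 18 probe sets, where 5.3% of all probe sets did and 4.53% had all BATF-/- arrays below. For the leading 8 the choice of the genes fixed this outcome, which 7.44% of all genes showed. Of the other 10 probe sets, 2 did so, 8 overlapped and none lay below. Of these 10, 8 were dim, none passed in naive cells (limma, lowest adjusted p = 0.439), where 0.739% of all probe sets did.

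Batf is on chromosome 12, and none of the 8 is. Slc15a2, Rpl39l and Morc1 are on chromosome 16, which holds 3.29% of the 18032 measured genes found in the gene table, Mid1 and Erdr1 are on the X chromosome, and Upp1, Enah and Myl10 are on chromosomes 11, 1 and 5. On the X chromosome Erdr1 is the last measured gene and Mid1 is separated from it by 2 measured transcripts. Those, 4933400A11Rik and G530011O06Rik, had dim probe sets with day 3 differences of 0.001 and 0.14. The Y-linked genes Eif2s3y, Kdm5d and Uty lay above 6.79 on all arrays and Xist between 3.98 and 4.66. Among them, Eif2s3y lay between 9.50 and 9.78 in wild-type and between 9.96 and 10.09 in BATF-/- naive arrays, and Kdm5d was higher in naive (7.74 to 8.46) than in day 3 arrays (7.38 to 7.64).

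The 3 nearest measured genes on each side gave 41 other genes. At day 3 none passed and none passed in naive cells (limma), while 2 (4.88%) and 6 (14.6%) had an unadjusted p under 0.05, against 11.7% and 12.8% of all genes. Their day 3 differences ran from -0.17 to 0.30, where the highest was that of Cd86, a ligand of Cd28 and Ctla4 that lies near Slc15a2. Over all genes 1.05% passed at day 3 and 0.863% in naive cells, so few calls would be found among 41 genes at that rate.

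**Figure D4:**
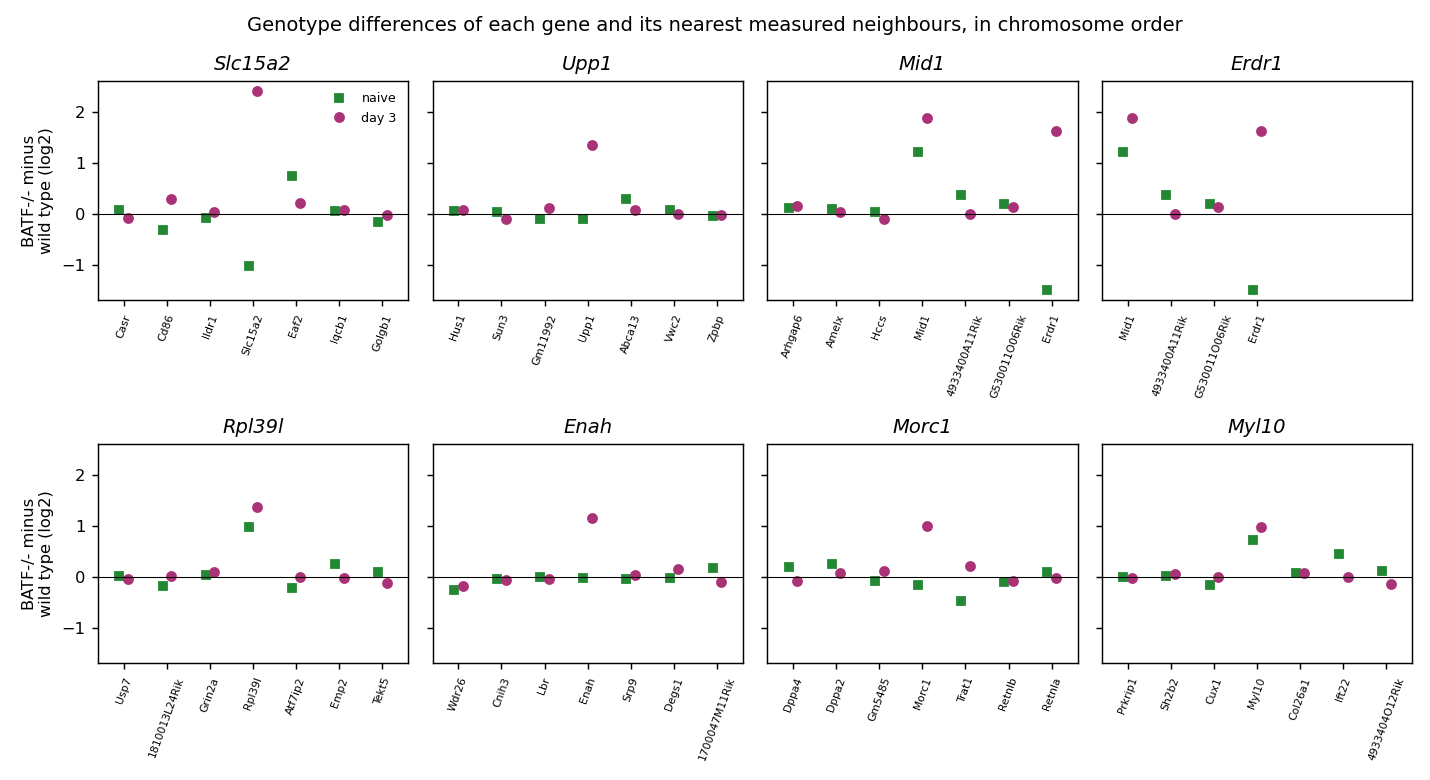
Difference between BATF-/- and wild type (y axis, log2) for each of the 8 genes and its nearest measured genes in chromosome order (x axis, evenly spaced). Circles are day 3 and squares naive cells. Neighbours other than the 8 genes themselves stay between -0.17 and 0.30 at day 3.

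Families and pathways of the 8 genes were followed in 10 lists with 132 measured genes other than the 8, of which 38 were dim. None of the 132 passed between the genotypes at day 3 or in naive cells (limma), where 1.05% and 0.863% of all genes passed. An unadjusted p under 0.05 was found for 10 (7.58%) and 13 (9.85%), against 11.7% and 12.8% of all genes. The median difference was 0.01 in both states, as it was over all genes at day 3 (0.01). Lists were written with earlier results of these data known. In the average change from naive to day 3, 42 rose and 41 fell, where 28.8% of all genes rose, 26.2% fell and 55% passed in all. Markers of several other cell types were higher in naive arrays. A fall within the CD8+ T cells and a loss of other cells cannot be told apart here.

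Among the 7 other peptide transporters, 3 of them dim, 4 rose and 1 fell from naive to day 3. Tap1, which carries peptides into the endoplasmic reticulum, rose by 0.82 (adjusted p = 2.82e-08), and the lysosomal peptide carrier Abcb9 by 1.18 (adjusted p = 4.1e-08). At day 3 their differences between the genotypes were -0.13 and -0.16. Slc15a4, the endolysosomal relative of Slc15a2, had day 3 means of 7.63 and 7.67, and Slc15a1, the intestinal form, was dim in all groups. Slc15a1 (0.50) and Slc15a5 (0.26), also dim in all groups, are among the 4 that rose. Of 16 amino acid transporters 4 rose and 8 fell. Slc7a5, the large neutral amino acid carrier, rose by 0.96 (limma, adjusted p = 1.52e-05) and differed by 0.25 ± 0.15 (SE) between the genotypes at day 3 without passing (adjusted p = 0.612).

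Of 22 other genes of pyrimidine salvage, synthesis and breakdown 6 rose and 7 fell. Tyms, the thymidylate synthase, rose by 1.64 (limma, adjusted p = 5.4e-10), and Cad, which starts pyrimidine synthesis, fell by 0.60 (adjusted p = 3.92e-07). Across the alternatives run, these changes were as small as 0.51 for Tyms and -0.30 for Cad. Upb1, which acts at the end of pyrimidine breakdown, fell by 0.76 (adjusted p = 0.000107). The day 3 differences of Tyms, Cad and Upb1 were -0.16, 0.17 and -0.16, and the other uridine phosphorylase gene, Upp2, was dim with a day 3 difference of 0.05.

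Of 19 Ena/VASP genes and partners 7 rose and 9 fell. Pfn2, which delivers actin monomers, rose by 1.33 (limma, adjusted p = 5.69e-08), and Zyx, a focal adhesion protein that binds Ena/VASP proteins, fell by 0.49 (adjusted p = 0.00035). Fyb, an adaptor that binds Ena/VASP proteins, rose by 0.44 (adjusted p = 7.67e-05) but was at -0.15 for the mean over its probe sets. Lpxn, a focal adhesion protein, rose by 0.23 (adjusted p = 0.0461), a call lost in 9 of 13 leave-one-out fits. At day 3 the genotype difference was -0.39 for Lpxn (limma, adjusted p = 0.158), -0.27 for Pfn2, -0.17 for Fyb and -0.15 for Zyx. None of these passed, and the genes were named for the width of this difference, so their shared sign does not describe the list. Over all 19 genes the differences ran from -0.39 for Lpxn to 0.11 for Vasp, with a median of -0.04. The relatives of Enah were bright at day 3, Vasp at 10.95 and 11.06 and Evl at 11.23 and 11.12 (wild-type and BATF-/- means). Of the 14 other myosin light chains and kinases 6 rose and 6 fell, with Myl4, an atrial light chain, at 2.80 (limma, adjusted p = 2.1e-11) and Myl12a at -0.21 (adjusted p = 0.00215, lost at -0.05 for the mean over its probe sets). Myl4 differed by 0.18 between the genotypes at day 3 and Myl12a by 0.10.

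Of 12 genes around Mid1, its relatives and the PP2A complex 7 rose and 1 fell. Ppp2ca, the catalytic subunit of PP2A, fell by 0.22 (limma, adjusted p = 0.00125) but was at 0.013 for the mean over its probe sets, and its day 3 difference was -0.12. Mid2, the closest relative of Mid1, was dim. Its naive difference was -0.35 and its day 3 difference 0.21. Of 8 other genes near the end of the X chromosome 3 rose and 3 fell, where Tlr7, a receptor for single-stranded RNA, fell by 1.08 (limma, adjusted p = 3.7e-07) and differed by 0.37 ± 0.12 (SE) at day 3 without passing (adjusted p = 0.224).

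Of 21 other germ line genes 16 were dim, 4 rose and none fell. Piwil2, a Piwi protein, rose by 1.07 (limma, adjusted p = 1.65e-06) and Stra8 by 0.47 (adjusted p = 0.000221), with day 3 differences of -0.09 and 0.04. Of the 4 other MORC genes Morc2a and Morc3 fell, by 0.69 and 0.45, and none rose. Of 9 ribosomal protein genes and copies 1 rose and 4 fell, with day 3 differences of 0.21 for Rps4l and 0.15 for Rpl7l1.

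The genes most like each member were found by Pearson's r of log2 values over the 13 arrays, given here as a description. The step from naive to day 3 weighs most for Slc15a2, Enah, Morc1 and Myl10. In Upp1, Mid1, Erdr1 and Rpl39l the day 3 genotype difference, which chose them, was wider than the average step. Slc15a2 was followed most closely by Fancf (r = 0.988) and Ddx10 (0.984), whose changes were far smaller, from 7.29 to 6.56 in wild type for Fancf. The closest to Upp1 were Mrpl17 (0.938) and Atp5j (0.934), and the closest to Erdr1 Shq1 (0.850) and Exosc7 (0.840). Mid1 was closest to Vcpkmt (0.956), a lysine methyltransferase gene on chromosome 12, the chromosome of Batf. Vcpkmt had means of 7.93 and 8.58 in naive and 7.997 and 9.01 in day 3 wild-type and BATF-/- cells, higher without BATF in both states, as Mid1 was. Next came Pet100 (0.899).

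Rpl39l was closest to Mrpl23 (0.877) and Acpp (0.851). Enah was closest to Spata5 (0.979) and Fhl2 (0.976), and Morc1 to Tmem37 (0.990) and Ptpn9 (0.987). Tmem37 had means of 6.18 and 6.23 in naive and 7.41 and 8.15 in day 3 wild-type and BATF-/- cells. Myl10 was closest to Il10ra (0.994), the receptor chain for interleukin 10, with means of 6.73 and 7.02 in naive and 8.69 and 8.93 in day 3 cells, and to Aph1a (0.993).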

How the data were processed

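RNA was labelled with biotin and hybridised to oligonucleotide arrays. The deposited intensity values are RMA probe set summaries, per the submitters' processing notes (version not given in the sources used here). They reach 27465 and are linear, and log2 was taken here without further normalisation. RMA makes array distributions alike and compresses dim signals. Of 45101 probe sets, 64 controls were left out. Of the 45037 others, 34945 map to 1 gene, 932 to several and 9160 to none in the platform table, and 0 probe sets shared between genes map to the 8 genes. No filter was applied. limma 3.58.1 in R 4.3.3 was fitted with 4 group means to all 13 arrays (9 residual and 4.42 prior degrees of freedom). Tests are two-sided, with Benjamini-Hochberg adjustment over the 45037 probe sets, and adjusted p below 0.05 counts as passed. The spread is pooled, which assumes that all groups vary alike. Precision is limited by how few arrays there are.

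The members and lists were chosen with earlier results of these data known. All 8 genes are described. From each list the text may name up to 4 genes, those with the widest day 3 difference among genes that passed in any comparison, and close relatives; not every such gene is named. It also names the 2 most similar genes of each member and the 3 nearest measured genes on each side. Genes of lists stand for their leading probe set. The fit was tested on simulated data with 200 changed probe sets. Alternatives were other scalings, probe set rules, variance models, a block and leaving out each array. Proteins were not used here.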

Additional observations from a re-analysis of the deposited data

Results flagged for a closer look

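Among the 36 day 3 groups of 4 arrays examined (18 probe sets in both genotypes), 3 had an array that stood apart from the others by Dixon's criterion, where chance gives about 1 in 20. They were a dim probe set of Mid1 in BATF-/- replicate 3 (2.77, gap over range 0.944), Rpl39l in wild-type replicate 2 (5.38, 0.875) and a dim probe set of Enah in wild-type replicate 1 (3.95, 0.873). Without wild-type day 3 replicate 2 the day 3 difference of Rpl39l was 1.28.

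In 2 genes every BATF-/- array was below every wild-type array in naive cells and above at day 3. The differences were -1.03 and 2.42 for Slc15a2 and -1.50 and 1.63 for Erdr1. The difference between the states was not tested, since the day 3 values chose the genes. Over all genes 0.874% showed the same pair of orders, and 0.962% had BATF-/- above in both states. The day 3 order was fixed by the choice of the genes. Of the 1354 genes with that day 3 order, 159 showed the same pair and 175 had BATF-/- above in both states.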

How the results depend on the processing

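The directions of the 8 genes at day 3 were kept under all alternatives run. The choice of the genes on these values all but fixed this, so it is no support. Leave-one-out ranges were from 2.32 to 2.55 for Slc15a2 and from 0.93 to 1.05 for Morc1. The mean over all probe sets of a gene gave smaller day 3 differences for Slc15a2 (0.84), Mid1 (0.69), Erdr1 (1.09) and Enah (0.35). Naive differences that were near 0 changed sign: Enah was at 0.059 for the mean over its probe sets and between -0.16 and 0.068 with an array left out, and Upp1 was between -0.37 and 0.16. Among named list genes the change from naive to day 3 changed sign for the mean over probe sets in Ppp2ca (0.013) and Fyb (-0.15). Its size also depended on the setting where the sign was kept. Across all alternatives it was as small as 0.51 for Tyms, -0.30 for Cad, 0.37 for Tap1 and 1.60 for Myl4. Naive differences passed with an intensity trend or array quality weights for Slc15a2 (adjusted p = 0.0419 and 0.0297) and with weights for Rpl39l (adjusted p = 0.0119).

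The number of probe sets that passed was 333 in naive cells, 22131 for the average change and 348 at day 3. Without dim probe sets it was 528 at day 3, where Morc1 was left out. With 1 probe set per gene it was 196 in naive cells and 10339 for the average change, and with the mean of all probe sets 188 and 10404. With an intensity trend it was 534 at day 3, with array quality weights 662 in naive cells and 1659 at day 3, and with the compared groups alone 2 and 894. With an array left out it was between 169 and 1623 in naive cells (highest without BATF-/- naive replicate 2), between 127 and 770 at day 3 (highest without BATF-/- naive replicate 1) and between 19489 and 22404 for the average change. Centring on array medians moved the share of higher calls in naive cells from 62.8% to 49.6%.

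There was no sign that replicate numbers pair the arrays, though pairing is not excluded. Deviations of same-numbered arrays correlated at -0.17 and -0.20 in naive cells and between -0.07 and 0.01 at day 3. With 2 wild-type naive arrays the deviations of that group are mirror images, which limits what the naive values can show. With the replicate number as a block 142 probe sets passed in naive cells and 163 at day 3, and Mid1 was at 1.15 in naive cells (adjusted p = 0.052).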
